A study of Arabidopsis thaliana with 6 samples.

Results

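The genes described here were those on the array whose symbol in the platform annotation was a numbered WRKY, NAC (or ANAC), ERF or ZAT name, each represented by its brightest probe set. The rule found 6 genes among the 8854 genes that had a probe set naming a single gene, and each of the 6 had 1 probe set. There were 5 WRKY genes (WRKY53, WRKY6, WRKY22, WRKY20 and WRKY47), 1 NAC gene (NAC014), 0 ERF genes and 0 ZAT genes. The set is therefore a small group of WRKY genes with 1 NAC gene and cannot speak for the ERF family. RefSeq lists 72 Arabidopsis genes with a WRKY number, 100 with a NAC number, 27 with an ERF number and 6 with a ZAT number among their symbols and synonyms. A further 6840 of the 16129 probe sets had no entry in the annotation and are unnamed here, so other family members may be among them.

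The plants were Arabidopsis thaliana of the Columbia ecotype (Col-0), 3 to 4 weeks old, and transcripts were measured in their distal leaves. A primary leaf was infiltrated with leaf exudate in MgCl2 (mock) or with the same exudate to which glycerol-3-phosphate (G3P) had been added, and other leaves were harvested after 24 h. Each group had 3 biological replicates from separate sets of plants, each on its own Affymetrix ATH1 array. Exudate and MgCl2 were common to both groups, so the comparison is of added G3P. Array medians ran from 291 to 338 signal units, and with so few arrays every value is imprecise. G3P replicate 3 stood apart, with correlations of only 0.842 to 0.913 against the others (computed over probe sets, not over independent samples). The leaf label was met by RCA, LHCB4.1, LHCB4.2 and PSAN, nuclear photosynthesis genes whose signals lay at or above the percentile of 96.9 on every array.

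WRKY factors are a large family in plants that binds W-box elements in promoters and acts in immunity, leaf senescence and nutrient responses. Many WRKY genes are themselves induced within hours of pathogen perception, and several regulate one another. NAC factors act in development, senescence and stress, and some are held at membranes until they are released. ERF factors carry an AP2 domain and relay ethylene and jasmonate signals to defence genes, whereas ZAT factors are zinc-finger proteins that mostly repress transcription under stress.

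None of the 6 genes passed the test between G3P and mock leaves. The smallest adjusted p among them was 0.912 (limma, Benjamini-Hochberg over all probe sets), and 0 of the 6 had an unadjusted p under 0.05. That count was 1 without G3P replicate 2 (WRKY20) and 1 without G3P replicate 3 (WRKY53). In those fits 1196 and 437 of all 16129 probe sets had an unadjusted p under 0.05. With all 6 arrays, 0 of the 16129 probe sets passed (0% called), and 496 (3.08%) had an unadjusted p under 0.05. The log2 difference, G3P minus mock, was negative for 5 genes and positive for 1. Of the 5 WRKY genes 4 were negative, and their median was -0.18, against -0.02 over all probe sets naming a single gene and 46.5% of all probe sets above 0. The WRKY median was 0.03 without G3P replicate 1 or without G3P replicate 2. The groups did not overlap for 1 of the 6 genes, WRKY20, as for 8.64% of all probe sets. In whole leaves, fewer cells that express a gene and less of its RNA per cell cannot be told apart.

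**Figure D1:**
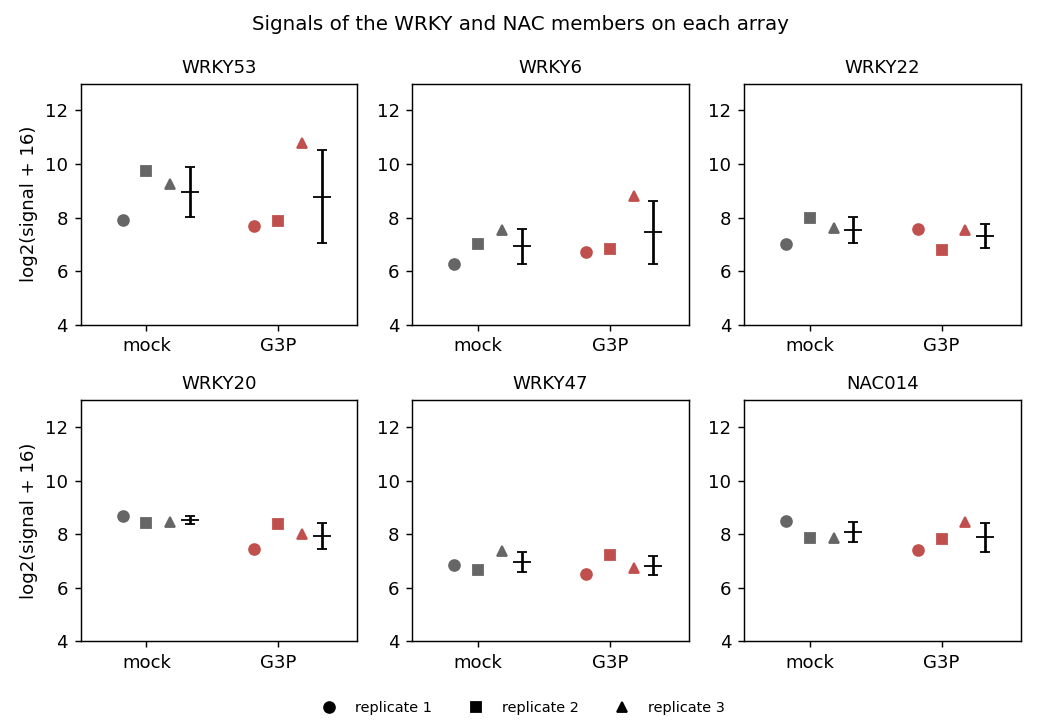
Each panel plots 1 gene, with log2(signal + 16) on the vertical axis and the mock (grey) and G3P (red) groups on the horizontal axis; symbols mark the replicate number, and the bar beside each group is the mean ± SD of 3 arrays. G3P replicate 3 is the highest point for WRKY53 (10.80) and WRKY6 (8.79), and the groups do not overlap for WRKY20.

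WRKY53, a regulator that promotes the onset of leaf senescence and also acts in basal defence, varied most among the 6 genes. Its signals were 224, 825 and 593 on mock replicates 1, 2 and 3 and 190, 216 and 1766 on G3P replicates 1, 2 and 3. Thus G3P held both the highest value and the 2 lowest, and the groups overlapped. On the log2 scale used for testing (signal + 16) the mock mean was 8.96 ± 0.94 and the G3P mean 8.78 ± 1.75 (SD, n = 3 each). The difference was -0.18 ± 0.84 (SE, limma adjusted p = 0.979), with a 95% interval from -2.12 to 1.76. The ratio of medians, the summary named in the study's design, was 0.364 for WRKY53, since 2 of the 3 G3P arrays lay below all mock arrays. A ratio of 0.5 or less was found for 4.65% of all probe sets.

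Without G3P replicate 3 the WRKY53 difference was -1.19 (limma, unadjusted p = 0.0389, adjusted p = 0.999). Omitting G3P replicate 1 or 2 gave 0.37 or 0.29. Omitting mock replicate 1, 2 or 3 gave -0.70, 0.20 or -0.03. Either sign could therefore be had from these arrays by leaving out a single one. The residual SD of WRKY53 within groups was 1.40, at the percentile of 98.4 among all probe sets.

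WRKY6, another senescence- and defence-associated factor, which also represses phosphate export genes, was the single gene of the 6 with a positive difference. Its signals were 60.2, 112 and 168 on the mock arrays and 88.9, 98.0 and 427 on the G3P arrays. The value on G3P replicate 3 lay above all others, while the other G3P arrays lay inside the mock range. The mock mean was 6.93 ± 0.64 and the G3P mean 7.45 ± 1.17 (SD, n = 3 each, log2 scale). The log2 difference of WRKY6 was thus 0.52 ± 0.59 (SE, limma adjusted p = 0.913), with a 95% interval from -0.85 to 1.89. Its ratio of medians was 0.872, opposite in direction to the difference of the means, as for 17.2% of all probe sets. Without G3P replicate 3 the difference was -0.15, and it was 0.18 without mock replicate 1 and 0.82 to 0.89 without mock replicate 3, G3P replicate 2 or G3P replicate 1.

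On G3P replicate 3, WRKY53 and WRKY6 exceeded their highest value on any other array by 1.08 and 1.27 log2 units. An excess of over 1 log2 unit on this array was found for 3.78% of all probe sets. For the other 4 genes, 0 arrays lay that far above or below the rest. LHCB4.1, LHCB4.2 and PSAN, antenna and photosystem genes, had their lowest log2 signals on the same array, at 13.51, 12.80 and 12.43, against 14.50, 14.39 and 13.98 or more elsewhere. SAG101, which partners EDS1 in immune signalling, had its highest log2 signal there as well, by less than 1 log2 unit (8.50, against 8.33 or less elsewhere). Among other related genes described below, PDF1.2 and PDF1.2b were highest on this array (10.03 and 10.15). ORA47 and TINY (tny) were lowest on it (8.35 and 6.72). RCA, the Rubisco activase gene, was lowest on G3P replicate 1 (13.13) and next lowest on G3P replicate 3 (13.36), against 13.86 or more elsewhere. What part the changes in these other genes have in the WRKY53 and WRKY6 values was not tested.

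Across the 6 arrays the log2 signals of WRKY53 and WRKY6 had a Pearson r of 0.87 (exact permutation p = 0.0208, two-sided) and a Spearman rho of 0.77 (exact permutation p = 0.103). Of 15 pairs among the 6 genes this was the only pair with an unadjusted p under 0.05, and 0 passed after Benjamini-Hochberg adjustment (adjusted p = 0.312 for r and 0.906 for rho, exact permutation). With the 2 arrays farthest from the median of WRKY53 left out (G3P replicate 3 and mock replicate 2), r was 0.84. That value rests largely on mock replicate 3, at 9.25 for WRKY53 and 7.52 for WRKY6. The remaining arrays lay at 7.91 or less and 6.83 or less. Without G3P replicate 3 alone, r was 0.68. Mock replicates 2 and 3 were high for both genes beside G3P replicate 3, and mock replicate 1 and G3P replicates 1 and 2 were low for both, so the order followed neither group.

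**Figure D2:**
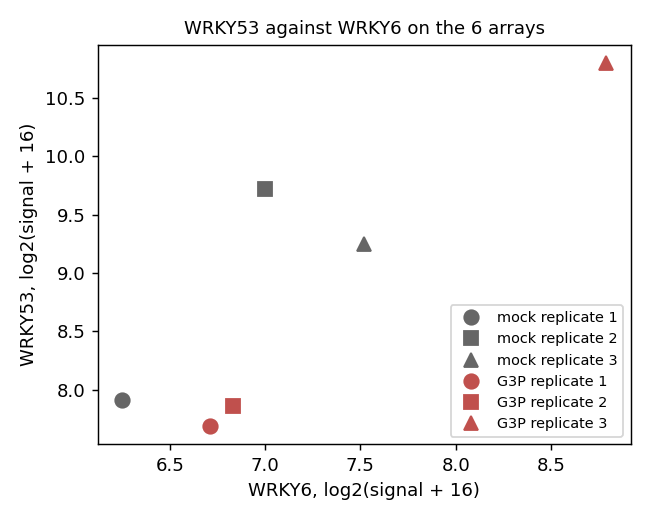
Each point is 1 array, with log2(signal + 16) of WRKY6 on the horizontal and of WRKY53 on the vertical axis, mock in grey and G3P in red, and symbols for the replicate number. G3P replicate 3 lies at the upper right (8.79 and 10.80), and low values of both genes come from mock replicate 1 and from G3P replicates 1 and 2.

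WRKY22 acts downstream of the flagellin receptor and its MAP kinase cascade and takes part in dark-induced senescence. Its signals were 113, 237 and 178 on the mock arrays and 176, 94.0 and 170 on the G3P arrays. The lowest came from G3P and the highest from mock, with the rest interleaved. The log2 difference was -0.23 ± 0.35 (SE, limma adjusted p = 0.935), with an interval from -1.04 to 0.59. Unlike WRKY53 and WRKY6, WRKY22 was not raised on G3P replicate 3, where its log2 signal of 7.54 lay within the range of the mock arrays. Omitting G3P replicate 2 gave 0.03, and omitting mock replicate 1 gave -0.49. In that comparison of 2 mock with 3 G3P arrays WRKY22 had groups without overlap, as did 14.2% of all probe sets (6.62% lower in G3P).

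WRKY20 belongs to the WRKY proteins with a pair of WRKY domains. Its signals were 398, 326 and 337 on the mock arrays and 156, 319 and 243 on the G3P arrays. All 3 G3P values lay below all mock values, though G3P replicate 2 lay just under the lowest mock array. Groups without overlap and lower in G3P were found for 4.37% of all probe sets, and in either direction for 8.64%, so a gene of this kind is not unusual on these arrays. The mock mean was 8.52 ± 0.15 and the G3P mean 7.95 ± 0.48 (SD, n = 3 each, log2 scale). The log2 difference of WRKY20 was -0.58 ± 0.29 (SE), with a 95% interval from -1.25 to 0.09 and a ratio of medians of 0.722. It did not pass (limma, unadjusted p = 0.0808, adjusted p = 0.912). Omitting G3P replicate 2 gave -0.80 and omitting G3P replicate 1 gave -0.32, the extremes over single arrays. The unadjusted p was 0.0282 without G3P replicate 2 (limma, adjusted p = 0.652), where 1196 of 16129 probe sets had one under 0.05. WRKY20 was the single gene of the 6 whose direction held with each array left out in turn. Its separated groups fixed that outcome in advance, so it adds nothing to the separation.

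WRKY47 belongs to the same subgroup of the family as WRKY6. Its signals were 99.7, 85.2 and 149 on the mock arrays and 74.7, 134 and 91.8 on the G3P arrays, and the groups overlapped. The log2 difference of WRKY47 was -0.13 ± 0.32 (SE, limma adjusted p = 0.956), with an interval from -0.88 to 0.62. It was 0.07 without mock replicate 3, 0.03 without G3P replicate 1 and -0.33 without G3P replicate 2.

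NAC014, the single NAC gene, encodes a factor of the membrane-anchored NAC group. Its signals were 345, 216 and 218 on the mock arrays and 152, 208 and 335 on the G3P arrays. Mock replicate 1 and G3P replicate 3 were high and G3P replicate 1 was low. The log2 difference of NAC014 was -0.19 ± 0.34 (SE, limma adjusted p = 0.938), with an interval from -0.97 to 0.59. Omitting G3P replicate 3 gave -0.48, omitting mock replicate 1 gave 0.02, and omitting G3P replicate 1 gave 0.06. In the comparison without G3P replicate 3 its groups did not overlap, as for 17% of all probe sets (8.17% lower in G3P).

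The intervals of WRKY47 and NAC014 lay within a 2-fold change in either direction, as did those of 52.6% of all probe sets, while for the other 4 genes the interval reached past 2-fold. The intervals carry no adjustment for multiple testing and apply to signals with 16 added. Most of the 6 genes were dim: only 1, WRKY53, lay outside the dimmest 50% of probe sets, and WRKY47 lay in the dimmest 25%. The 6 genes fell into a pair with wide spread within groups and 4 with ordinary spread. The residual SDs of WRKY53 and WRKY6 stood at percentiles of 98.4 and 93.9 among all probe sets, and those of WRKY20, WRKY22, WRKY47 and NAC014 at 47.7 to 65.4.

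**Figure D3:**
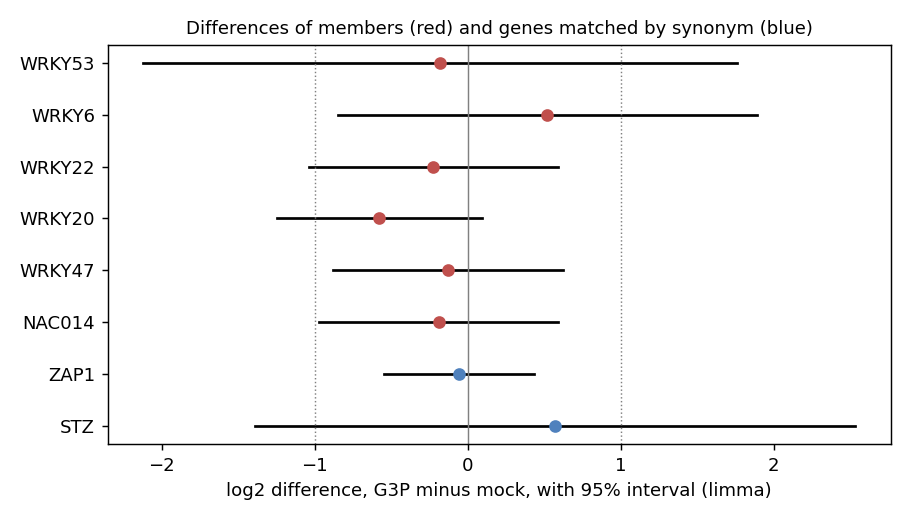
Points are log2 differences, G3P minus mock, and lines their 95% intervals from limma, for the 6 genes (red) and for ZAP1 and STZ (blue); dotted lines mark a 2-fold change. All intervals include 0, and the widest among the 6 is that of WRKY53 (-2.12 to 1.76).

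**Figure D4:**
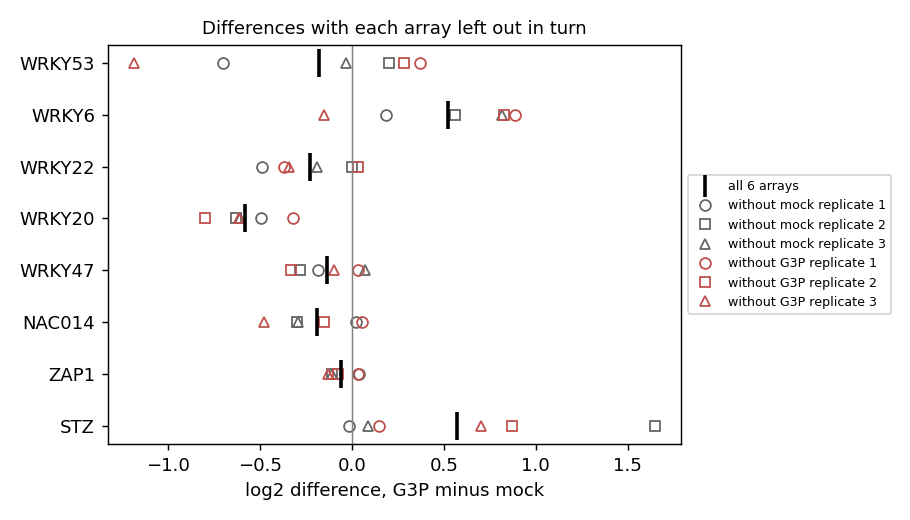
For each gene the black bar is the log2 difference from all 6 arrays, and open symbols give it with 1 array left out, in grey for mock and red for G3P arrays. WRKY20 stays below 0 throughout (-0.80 to -0.32), as its separated groups require, whereas WRKY53 runs from -1.19 to 0.37 and STZ from -0.02 to 1.65.

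A further 2 genes match these families by a RefSeq synonym only, ZAP1 (WRKY1) and STZ (ZAT10), and are not counted above. ZAP1, a zinc-dependent activator of the WRKY family, had signals of 598, 483 and 483 on the mock arrays and 438, 511 and 551 on the G3P arrays. It was the steadiest of the named WRKY genes, with a residual SD of 0.17, at the percentile of 9.2, and a log2 difference of -0.06 ± 0.21 (SE, limma adjusted p = 0.973). STZ, a zinc-finger repressor induced by cold, salt and wounding, had signals of 480, 4987 and 557 on the mock arrays and 3007, 1092 and 1381 on the G3P arrays. Mock replicate 2 was its highest array and mock replicates 1 and 3 its lowest, so that the mock values enclosed those of G3P. The log2 difference of STZ was 0.57 ± 0.85 (SE, limma adjusted p = 0.929), its ratio of medians was 2.48, and a ratio of 2 or more was found for 2.54% of all probe sets. Without mock replicate 2 the STZ difference was 1.65 (limma, unadjusted p = 0.00768, adjusted p = 0.998), and it was -0.02 without mock replicate 1.

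Although 0 numbered ERF genes were named, 3 relatives with an AP2 domain were measured under other names. ORA47, an activator of jasmonate synthesis genes, had log2 signals of 8.57, 10.08 and 8.71 on the mock arrays and 12.38, 10.17 and 8.35 on the G3P arrays. Its highest value came from G3P replicate 1, over 1 log2 unit above the others, and its lowest from G3P replicate 3. The difference of ORA47 was 1.18 ± 0.92 (SE, limma adjusted p = 0.912), and 0.14 without G3P replicate 1. Without G3P replicate 3 the ORA47 difference was 2.15 (limma, unadjusted p = 0.0109, adjusted p = 0.999). Mock replicate 2 and G3P replicate 1 were the highest arrays of STZ, and neither gene was at its highest on G3P replicate 3, unlike WRKY53 and WRKY6. The DREB-type factors TINY (listed as tny) and TINY2 had differences of -0.31 ± 0.38 and 0.03 ± 0.34 (SE, limma adjusted p = 0.917 and 0.993). For TINY (tny), omitting mock replicate 1 or 3 gave -0.001 or -0.55, and omitting G3P replicate 1 or 3 gave -0.54 or -0.06. That of TINY2 ran from -0.23 to 0.22 over single omitted arrays. With STZ, 67 listed names of relatives, some of them synonyms and LOV1 among them, found 4 genes among probe sets naming a single gene. Of these 4 genes 3 had positive and 1 negative differences, and 0 passed. Listed genes that were not found may be on the array without a name.

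The 56 listed names of upstream signalling genes found 2 genes among probe sets naming a single gene. Both had negative differences, and 0 passed. Listed genes that were not found may be on the array without a name. EIN3, the ethylene-signalling factor that switches on ERF genes, had log2 signals of 11.35, 11.36 and 11.36 on the mock arrays and 11.08, 11.23 and 11.13 on the G3P arrays. The groups did not overlap (8.64% of all probe sets), yet the difference of -0.21 ± 0.17 (SE) did not pass (limma adjusted p = 0.912). The SDs of EIN3 were only 0.0049 in mock and 0.07 in G3P, and the limma SE also draws on the variance of other probe sets. The difference of EIN3 lay between -0.25 and -0.18 with each array left out in turn, its sign being fixed by the separated groups. SAG101 had a difference of -0.07 ± 0.32 (limma adjusted p = 0.978), 0.20 without G3P replicate 1 and -0.33 without G3P replicate 3.

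For outputs of defence and senescence, 44 names were listed, some of them synonyms, and 2 genes were found among probe sets naming a single gene. Listed genes that were not found may be on the array without a name. The 2 found were the defensin genes PDF1.2 and PDF1.2b, which ERF factors activate under joint jasmonate and ethylene signals. They have near-identical relatives, so their probe sets may not tell the family apart. PDF1.2 had log2 signals of 4.72, 6.64 and 7.96 on the mock arrays and 6.56, 8.18 and 10.03 on the G3P arrays. PDF1.2b had 6.34, 6.29 and 7.88 on the mock arrays and 6.33, 8.06 and 10.15 on the G3P arrays. Both were highest on G3P replicate 3, as WRKY53 and WRKY6 were, and in both genes the groups overlapped. The differences were 1.81 ± 1.01 and 1.34 ± 0.90 (SE), and neither passed (limma adjusted p = 0.912 for each). Without G3P replicate 3 they were 0.93 for PDF1.2 and 0.36 for PDF1.2b, and without mock replicate 1 PDF1.2 had 0.95. Without G3P replicate 1 they were 2.66 and 2.27 (limma, unadjusted p = 0.0313 and 0.0193, adjusted p = 0.907 for each). PDF1.2 had 2.57 without mock replicate 3 (limma, unadjusted p = 0.043, adjusted p = 0.798). With the replicate number as a block the unadjusted p was 0.000511 for PDF1.2 and 0.0276 for PDF1.2b, and the adjusted p 0.880 for each (limma). Nothing says that the numbers mark shared plants, so these block values may rest on a pairing that does not exist. In the block fit 685 of 16129 probe sets had an unadjusted p under 0.05. The size is uncertain for PDF1.2, whose signal on mock replicate 1 was near the lowest value of 4 that the scale allows.

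**Figure D5:**
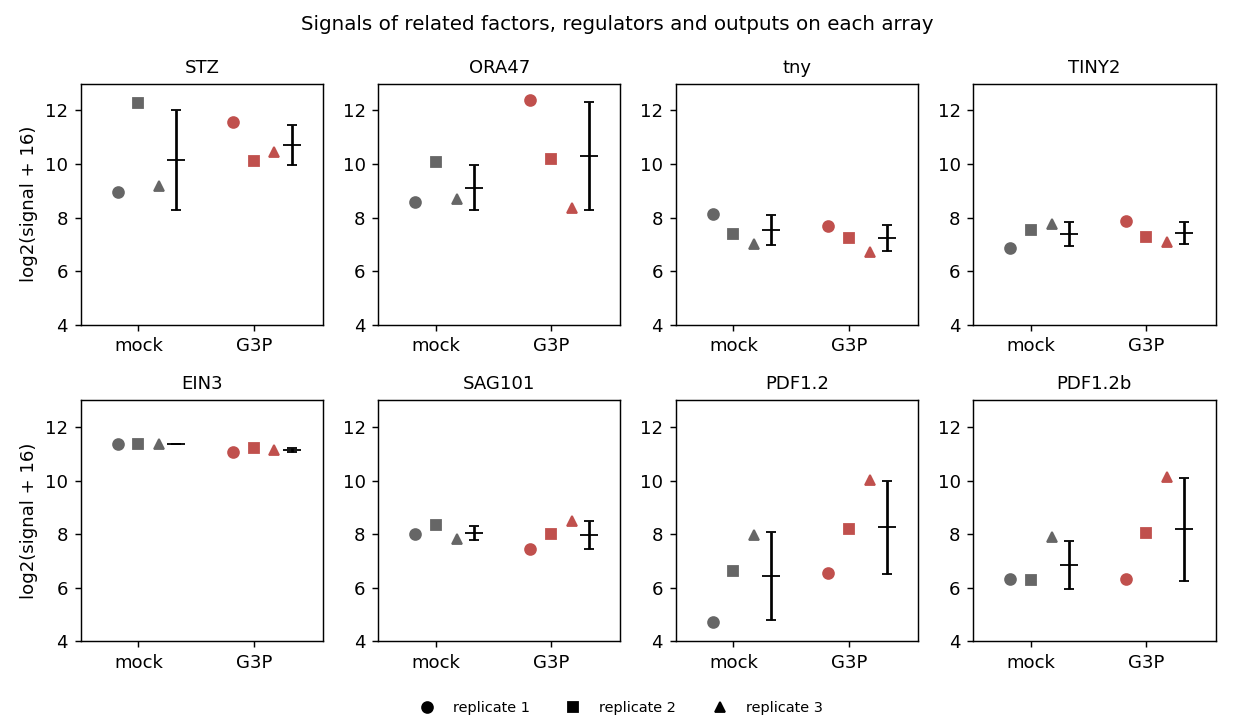
Panels plot log2(signal + 16) for 8 genes related by family or pathway, with mock in grey, G3P in red, symbols for the replicate number and bars for the mean ± SD of 3 arrays. STZ and ORA47 are high on mock replicate 2 or G3P replicate 1, PDF1.2 and PDF1.2b are highest on G3P replicate 3, and EIN3 varies least.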

How the data were processed

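Trizol RNA was labelled with biotin, per the labels' protocols. The deposited table gives linear signal intensity, 1 value for each probe set on each array, made by the authors with Affymetrix Expression Console 1.0 per the submitters' processing notes. The summarization algorithm, the scaling and the choice of the 16129 listed probe sets are unstated (not given in the sources used here). Mean signals with 2% trimmed from each end were near equal, from 747 to 754 over the arrays, so the values appear scaled to a common trimmed mean. Groups came from the sample labels. Values were analysed as log2(signal + 16), a scale that understates the change of dim probe sets, with limma 3.58.1 in R 4.3.3 (lmFit, eBayes with a variance trend, 6 arrays, no covariates) and Benjamini-Hochberg adjustment over all probe sets at 0.05. The exact rank-sum test of the study's design text, whose two-sided p cannot go below 0.1 with 3 against 3, was an alternative.

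Platform annotation named 1 gene for 8950 probe sets and several for 339, which were left unnamed. Current names came from RefSeq (TAIR10.1), matching 8911 probe sets. No coordinates or sequences are given. The LOV1 of the annotation is not the NAC gene meant in the list of relatives and was set aside. The genes and lists were chosen with earlier results of these data known. The rule for named genes took known defence or senescence members, the smallest p-values, separated groups, arrays over 1 log2 unit outside the other 5, and extremes of brightness, which covered all 6. Pairs of genes were compared across arrays with exact permutation tests. Alternatives covered pairing, pseudocount, normalization, filters, variance model, array weights and left-out arrays. Tested on simulated data with 200 changed probe sets of 16129, the fit found 9% of changes of 1 log2 unit, 58.4% at 2, 78.6% at 3 and 91.4% at 4. False calls averaged 5.5 per simulation. The simulated errors were independent between probe sets, so an array that stands apart as a whole was not represented, and these shares may not hold here.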

Additional observations from a re-analysis of the deposited data

How the results depend on the processing

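The count of 0 genes past the adjusted threshold held for the 6 genes, and for all probe sets, under every alternative run: quantile normalization, array-median centring, pseudocounts of 1 and 64, the replicate block, omission of the dimmest 25% or 50%, no variance trend, array weights and each array left out. At 3 against 3 the exact rank-sum test, with 0 as well, could give no call. Adding the 2 genes matched by synonym, chosen after seeing the data, left 0 past the threshold and 1 separated gene. With the replicate block the smallest adjusted p among the 6 genes was 0.880, and no call changed. Nothing says that the numbers mark shared plants, and deviations of same-numbered arrays correlated at 0.006, -0.102 and 0.314. Those of mock replicate 1 and G3P replicate 2, with unlike numbers, correlated at 0.451. Separated groups were found for 1 gene, for 0 without the dimmest 50% (where 1 of the 6 genes was left to count), and for 1 to 3 with single arrays left out (2 without mock replicate 1, WRKY22 being added, and 3 without G3P replicate 3, WRKY53 and NAC014 being added). With 2 arrays against 3, 14.2% and 17% of all probe sets were separated in these comparisons, against 8.64% with 3 against 3. The WRKY median of -0.18 ranged from -0.49 to 0.033 with single arrays left out, the extremes without mock replicate 1 and without G3P replicate 2, and was -0.51 with array weights.

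Of 165 pairs of a named gene and an alternative able to move its difference, 18 turned the direction: 16 of 90 by leaving out an array and 2 with array weights (0.042 for WRKY47 and -0.307 for STZ); the cause was not tested. Without mock replicate 1, NAC014 had 0.02, STZ -0.017, ZAP1 0.041 and TINY2 -0.228. Without mock replicate 2, WRKY53 had 0.202 and SAG101 0.071, and without mock replicate 3, WRKY47 had 0.071. Without G3P replicate 1, WRKY53 had 0.37, NAC014 0.055, WRKY47 0.031, ZAP1 0.031, TINY2 -0.207 and SAG101 0.197. Without G3P replicate 2, WRKY53 had 0.286 and WRKY22 0.033, and without G3P replicate 3, WRKY6 had -0.153. With single arrays left out the opposite extremes were -1.19 for WRKY53, -0.48 for NAC014, 0.89 for WRKY6, -0.49 for WRKY22, -0.33 for WRKY47, 1.65 for STZ, -0.13 for ZAP1, 0.22 for TINY2, -0.55 for TINY (tny) and -0.33 for SAG101. The WRKY53 difference was -1.05 with array weights. Averaging a gene's probe sets was not run, since each of the 6 genes has 1.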
